A study of Mus musculus with 30 samples.

Results

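After mESCs were moved into EMM, most genes that changed strongly at 3 h were still changed at 24 h, and a smaller set moved at 3 h and had come back by 24 h. These transient genes numbered 148 of the 52630 genes in the time course, with 28 rises and 120 falls, and 13623 genes were expressed highly enough to be considered. They were chosen by a rule on the time course itself. Counts were divided by the library total to give CPM, the count per 1e+06 counts, the mean of the 3 libraries of a group was taken, and L was log2(mean CPM + 0.5). A gene was kept when its largest group mean reached 1 CPM, when L at 3 h differed from L at 0 h by at least 0.8 in size, and when L at 24 h differed from L at 0 h by less than 0.4. Genes with names starting in Hist or mt- were left out, and 1 gene past the rule was left out by name. Of 214 genes past the 3 h threshold upwards, 28 were transient (13.1%), 182 were still changed the same way at 24 h and 4 had turned. Of 461 past it downwards, 120 were transient (26.0%), 334 were still lower and 7 had turned. The balance of rises and falls depends on how the libraries are scaled, as given below. The 3 h and 24 h differences from 0 h chose the genes, so they are given below as a description with no test.

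All cells were E14tg2a, 1 line of mouse embryonic stem cells (mESCs). In the time course they were kept in Serum/LIF, medium with serum and the cytokine LIF (labelled control, 0 h), or placed for 3, 9 or 24 h in EMM, the same medium with D-galactose in place of glucose and pyruvate, with 3 libraries per group and 12 in all. A separate passage experiment had 3 media, Serum/LIF, EMM and 2i/LIF (inhibitors of MEK and GSK3 with LIF), each used for 10 passages (P10) or 20 passages (P20), again with 3 libraries per group, 18 in all. All groups of both experiments received LIF. The labels give 0 h for the control and mention a Serum/LIF culture of 24 h in the protocol, so how long the control was kept after its last medium change was not settled. A change of medium itself has no control of its own at 3 h.

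Cells that receive fresh medium or a growth factor switch on immediate early genes within minutes to hours. ERK phosphorylates the cofactors of serum response factor (SRF), and monomeric actin holds back another family of SRF cofactors, the MRTFs. SRF binds a short element, the CArG box, at early genes and at genes of the actin cytoskeleton, its own gene included. Such responses are short because their products shut them off and because many of their mRNAs are unstable. In mESCs, BMP signalling through the Id genes, Wnt signalling read out by Axin2, and ERK signalling all bear on self-renewal.

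Total counts ran from 24074132 to 35301962 per library in the time course and from 6944918 to 27912959 in the passage experiment. All 10 mESC markers were expressed, and their summed level was between 4826 and 7846 CPM in every library. The 12 time course libraries fell into 2 kinds that the labels do not name. Rpl36, a short ribosomal protein gene that is not transient by the rule and was chosen after its values were seen, was at 251, 64.3 and 402 CPM in Serum/LIF, 66.4, 67.7 and 54.9 CPM at 3 h, 54.6, 56.6 and 439 CPM at 9 h and 53.3, 496 and 489 CPM at 24 h. It was therefore low in 7 libraries (Serum/LIF replicate 2, all 3 at 3 h, replicates 1 and 2 at 9 h and replicate 1 at 24 h) and high in 5. Within groups, 90 of 12626 protein-coding genes (0.713%) were lower by at least 0.7 (log2) in the low libraries and 1 was higher, and 47 of the 90 had a transcript under 1000 bases. Among the 90 are 14 of the 120 falls and none of the rises. The passage libraries showed no such division, with Rpl36 between 290 and 580 CPM. The cause was not tested, and the falls are given below with and without these 14.

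**Figure D1:**
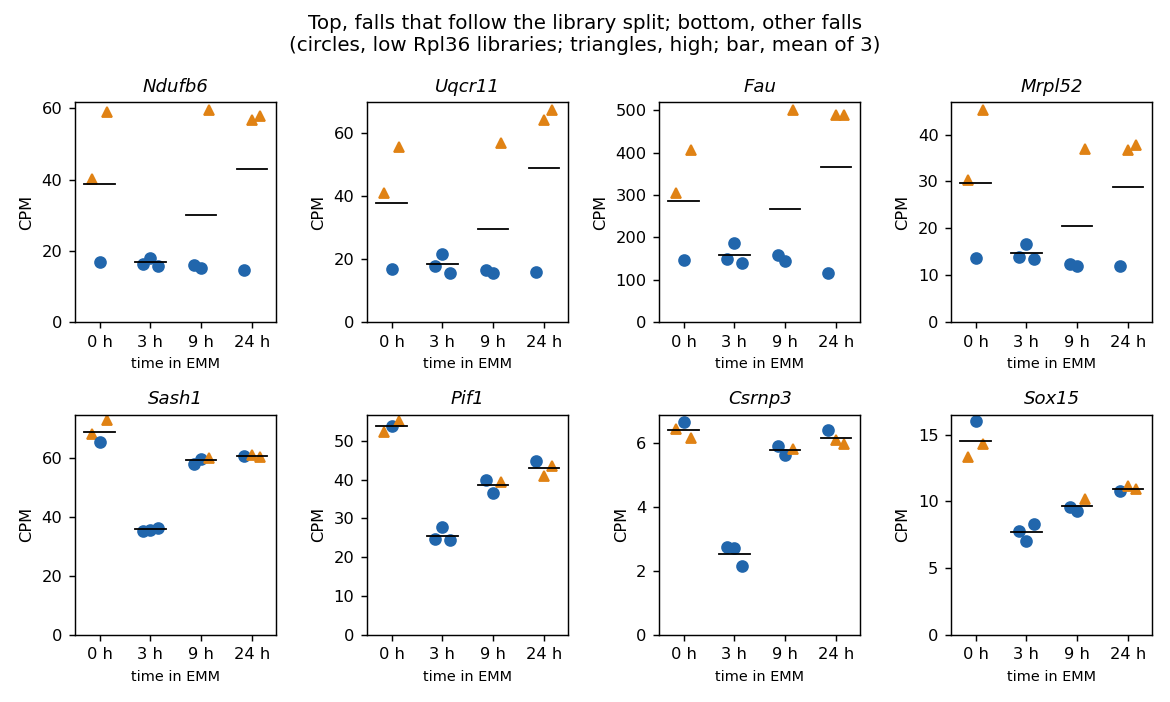
CPM in each of the 12 time course libraries (y axis) by time in EMM (x axis, not to scale) of Ndufb6, Uqcr11, Fau and Mrpl52, which follow the library split, and of Sash1, Pif1, Csrnp3 and Sox15, which do not. Circles are the 7 libraries low in Rpl36, triangles the 5 high ones and bars the mean of 3. In the top row the 3 h libraries sit at the level of the circles at every other time (Ndufb6 14.7 to 18.1 CPM), and in the bottom row the circles at 0 h stay with the triangles, apart from 3 h.

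Srf itself and several genes of the actin cytoskeleton were among the rises. The 300 bases from 250 before to 50 after each RefSeq start site (GRCm38.p6) were searched on both strands for the CArG box. It was found in 4 of the 25 rises with a sequence (16.0%), in 2 of the 86 falls with a sequence (2.33%) and in 1.56% of 11434 tested genes. The 4 rises were Srf, Dusp5, Vcl and Gm3696, a predicted gene. Of the actin genes described below, Vcl was among the 4, and Wdr1 and Cnn1 were not. The stretches around the boxes of the first 3, and of the fall Prickle3 for contrast, are printed 5′ to 3′ on the strand of the gene with the CArG boxes in capitals.
Srf, chr17:46556170-46556289, minus strand: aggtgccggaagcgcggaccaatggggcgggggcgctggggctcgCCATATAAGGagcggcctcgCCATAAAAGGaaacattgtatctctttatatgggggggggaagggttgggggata
Dusp5, chr19:53529018-53529127, plus strand: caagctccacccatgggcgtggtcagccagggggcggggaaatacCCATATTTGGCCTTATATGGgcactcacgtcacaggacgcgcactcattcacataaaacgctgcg
Vcl, chr14:20929148-20929225, plus strand: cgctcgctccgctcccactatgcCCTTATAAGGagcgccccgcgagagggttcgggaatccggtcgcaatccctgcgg
Prickle3, chrX:7657206-7657305, plus strand: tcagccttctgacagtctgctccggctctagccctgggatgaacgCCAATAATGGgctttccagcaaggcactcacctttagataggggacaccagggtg
The boxes begin 82 and 62 bases before the start site of Srf, 82 and 72 bases before that of Dusp5, where they lie end to end, 227 before that of Vcl and 128 before that of Prickle3. Other elements were searched the same way. The E-box CACGTG was in 16.0% of rises, 1.16% of falls and 11.5% of all tested genes, and the AP-1 element TGANTCA in 4.0%, 8.14% and 6.08%. The CRE TGACGTCA was in none of the 25 rises, in 2.33% of falls and in 3.55% of all, and TATAAA in 12%, 10.5% and 8.69%. A match is a stretch of letters and no evidence of binding.

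Srf (ENSMUSG00000015605, chr17:46548329-46556175 in GENCODE M21, GRCm38) was at 82.1, 83.1 and 71.1 CPM in Serum/LIF, 148, 154 and 147 CPM at 3 h, 59.8, 63.4 and 51.2 CPM at 9 h and 72.2, 59.6 and 59.2 CPM at 24 h. The 3 h libraries stood above all others, and the 9 h libraries lay below all 3 of Serum/LIF. Its 9 h log2 fold change against Serum/LIF was -0.41 ± 0.09 SE, given as a description.
Wdr1 (chr5:38526813-38563221), which with cofilin takes actin filaments apart, came back with little spread, going from 155, 155 and 154 CPM to 326, 320 and 313 CPM at 3 h, then 162, 169 and 164 CPM at 9 h and 171, 162 and 166 CPM at 24 h. Vcl (vinculin, chr14:20929398-21033676), which joins integrin adhesions to actin, went from 79.6, 83.1 and 96.0 CPM to 162, 160 and 165 CPM, and was at 93.3, 97.9 and 94.0 CPM at 9 h and 96.3, 95.7 and 102 CPM at 24 h. Its exons share 2090 bases with Ap3m1 on the other strand, and the strand setting of the counting is not given in the sources used here, and Ap3m1 moved by -0.05 (log2) at 3 h. Cnn1, the actin-binding protein calponin 1, went from 2.99, 2.80 and 3.44 CPM to 6.94, 6.25 and 6.23 CPM and kept 73.0% of its 3 h difference in L at 9 h, the most of any rise.

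Some signalling genes were also among the rises. Dusp5 (chr19:53529109-53542431), a nuclear phosphatase that removes phosphate from ERK and the one rise on the ERK feedback list, was at 20.2, 21.7 and 18.6 CPM in Serum/LIF, 48.1, 47.3 and 45 CPM at 3 h, 28, 28.3 and 23.8 CPM at 9 h and 23.0, 23.9 and 22.1 CPM at 24 h. Id2 (chr12:25093799-25097140), an inhibitor of basic helix-loop-helix factors, went from 82.7, 85.7 and 74.3 CPM to 163, 163 and 168 CPM and was at 111, 113 and 107 CPM at 9 h and 105, 109.9 and 104 CPM at 24 h. Both genes were above every Serum/LIF library at 9 h and at 24 h. Efna3, a ligand of Eph receptors, was at 12.1, 12.3 and 7.96 CPM in Serum/LIF, 26.7, 26.2 and 26 CPM at 3 h and 12.7, 12.4 and 8.34 CPM at 9 h. Its exons share 344 bases with Gm15998 on the other strand, which moved by 1.23 (log2) at 3 h, and its part in the count of Efna3 was not tested. P2ry2, a receptor for extracellular nucleotides, went from 2.82, 3.07 and 2.40 CPM to 6.94, 6.65 and 6.40 CPM.

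Among transcription regulators, Trp73, of the p53 family, went from 6.02, 5.76 and 6.03 CPM to 14.8, 14.4 and 14.3 CPM and back to 5.67, 4.69 and 4.94 CPM at 24 h. Hr, a corepressor of nuclear receptors, went from 25, 26.9 and 26 CPM to 57.2, 54.4 and 52 CPM and was at 27.3, 26 and 23.7 CPM at 9 h. Zfp423, a zinc finger factor, went from 91.9, 85.8 and 85.1 CPM to 161, 159 and 160 CPM. At 9 h it had undershot to 62.9, 67.0 and 64.8 CPM, below every Serum/LIF library (log2 fold change -0.41 ± 0.05 SE). Mafk, a small Maf protein that pairs with Nrf2, was at 13.9, 14.2 and 14.8 CPM and then 26.8, 26.8 and 27.1 CPM. The sodium-phosphate transporter gene Slc20a1 was at 338, 344 and 332 CPM in Serum/LIF and 639, 595 and 616 CPM at 3 h. Its exons share 452 bases with 9830144P21Rik and 280 with Gm4430, both on the other strand, which moved by 0.81 and 0.75 (log2) at 3 h, and their part in its count was not tested. Trh, which encodes the precursor of thyrotropin-releasing hormone, went from 256, 263 and 215 CPM to 516, 458 and 488 CPM. In all 6 of these rises the 3 h libraries lay above every Serum/LIF library. Of the 28 rises, 10 never reached a group mean of 5 CPM. They include the steepest by L, Lor, which encodes loricrin of the skin barrier (1.25, 1.36 and 0.735 CPM, then 4.26, 4.72 and 4.22 CPM), and Grm2, Edn2, Il1r1 and the early growth response factor Egr4, all named after their values were seen.

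**Figure D2:**
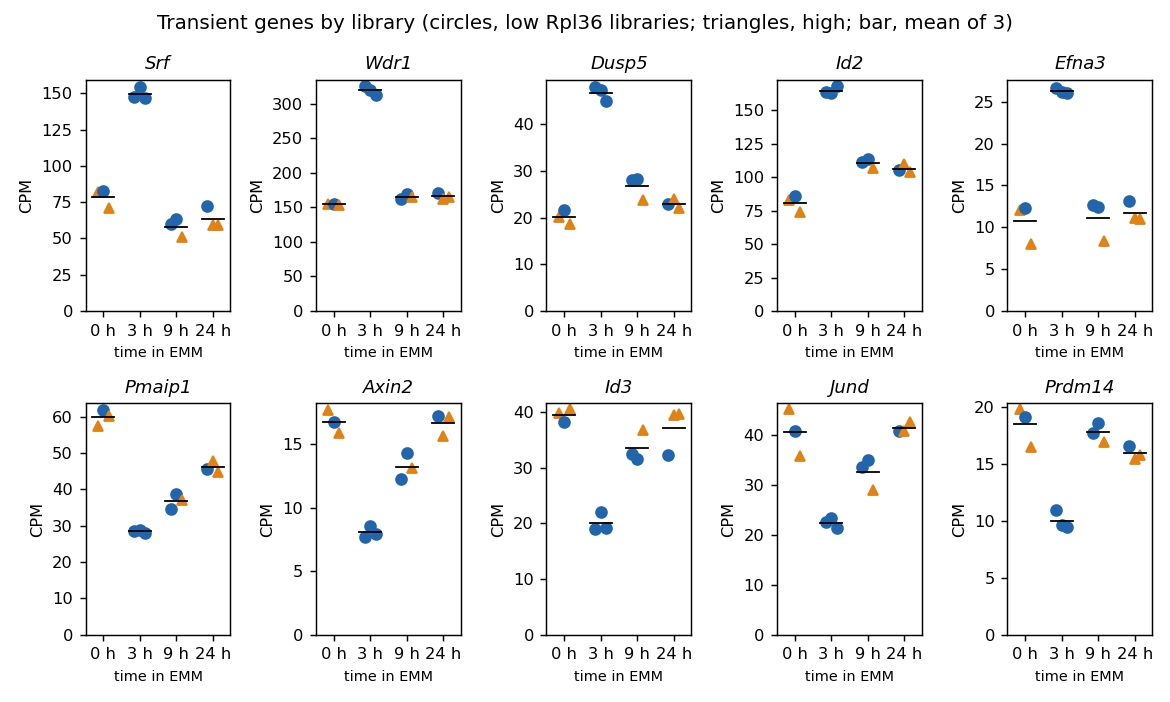
CPM (y axis) of the rises Srf, Wdr1, Dusp5, Id2 and Efna3 (top) and the falls Pmaip1, Axin2, Id3, Jund and Prdm14 (bottom) by time in EMM (x axis, not to scale), 1 point per library, with the bar at the mean of 3. In each of the 10 genes the 3 h libraries do not overlap those of 0 h (Srf 147 to 154 CPM against 71.1 to 83.1 CPM). Circles and triangles are the libraries low and high in Rpl36.

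Of the 106 falls outside the library split, Axin2 was the one on the Wnt and Notch list. Axin2 (chr11:108920349-108950783), a Wnt target that restrains the pathway, was at 17.7, 16.7 and 15.9 CPM in Serum/LIF, 7.72, 8.59 and 7.96 CPM at 3 h, 12.2, 14.3 and 13.2 CPM at 9 h and 17.2, 15.6 and 17.1 CPM at 24 h. The 3 h libraries did not overlap any other group, and the 24 h libraries lay within the Serum/LIF range or near it. Porcn, which adds the lipid that Wnt ligands need for secretion, went from 25, 27.8 and 23.0 CPM to 13.7, 13.3 and 14.2 CPM. Prickle3, a planar polarity gene, had the largest fall in L (-1.39), from 3.49, 3.99 and 3.83 CPM to 1.02, 1.28 and 1.10 CPM. Its paralogue Prickle2 fell by 1.22 in L. Porcn, Prickle2 and Prickle3 were named after their values were seen.

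Id3 (chr4:136143497-136145755) moved against Id2, from 39.8, 38.2 and 40.5 CPM to 19, 22.1 and 19.1 CPM, and was at 32.4, 31.5 and 36.8 CPM at 9 h. Jund, an AP-1 subunit and the one fall on the immediate early list, went from 45.2, 40.8 and 35.8 CPM to 22.6, 23.5 and 21.3 CPM. The pluripotency genes Prdm14 and Sox15 were lower at 3 h and then diverged. Prdm14 (chr1:13113457-13127163) was at 19.8, 19.1 and 16.5 CPM in Serum/LIF, 10.9, 9.65 and 9.43 CPM at 3 h and 17.7, 18.6 and 16.9 CPM at 9 h, whereas Sox15 was at 13.3, 16.0 and 14.3 CPM, then 7.78, 7.0 and 8.27 CPM, and still at 9.54, 9.29 and 10.2 CPM at 9 h. The Prdm14 libraries at 9 h overlapped those of Serum/LIF, and those of Sox15 did not.

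Among metabolic and stress genes, Pdk4, a kinase that blocks pyruvate dehydrogenase, went from 8.43, 9.38 and 8.70 CPM to 4.30, 4.62 and 4.48 CPM. P4ha1, a collagen prolyl hydroxylase and hypoxia target, was at 47.5, 47.4 and 52 CPM, then 28.3, 26.7 and 27.6 CPM, and was back at 48.1, 52.3 and 62.2 CPM by 9 h. Pmaip1, which encodes the cell death protein Noxa, was at 57.3, 62.0 and 60.2 CPM, then 28.6, 28.8 and 28.1 CPM, and came back slowly through 34.7, 38.8 and 37.1 CPM at 9 h to 45.5, 47.9 and 44.7 CPM at 24 h. It had not reached the Serum/LIF libraries by 24 h, although it met the rule. Per3, a clock gene, was at 14.7, 16.0 and 17.1 CPM and then at 9.14, 7.56 and 8.30 CPM. Pif1, a DNA helicase, was at 52.2, 53.8 and 55.2 CPM and then at 24.7, 27.7 and 24.3 CPM. Receptors and their regulators among the falls included Lrig1, which restrains ErbB receptors (16.2, 20.1 and 18.5 CPM, then 8.90, 8.71 and 7.39 CPM), Sirpa, the receptor of CD47 (5.28, 5.80 and 6.80 CPM, then 2.06, 2.25 and 3.03 CPM), and Robo4, of the Robo family (4.82, 5.66 and 5.68 CPM, then 2.44, 2.50 and 2.32 CPM). The receptor genes Acvrl1, Ifngr2, Pdgfrb, Thra and Gpr135 and the Hedgehog co-receptor genes Boc and Gas1 were falls too, as were Ssh2 and Ssh3, whose phosphatases activate cofilin, all named after their values were seen.

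The 14 falls of the library split were Ndufaf8, Bola1, Ndufb6, Uqcr11, Fau, Dpm3, Mrpl52, Naa38, Coa6, Snrpf, Ppp1r14a, H2afj, Cdc42ep5 and Mymx. A transcript under 1000 bases was listed for 12 of them, and only 2 other transient genes, Sox15 and Ppp1r35, are that short. Ndufb6 (chr4:40270591-40279421), a subunit of respiratory complex I, shows the pattern, with 40.2, 16.9 and 59.1 CPM in Serum/LIF, 16.4, 18.1 and 15.8 CPM at 3 h, 16.0, 15.1 and 59.4 CPM at 9 h and 14.7, 56.6 and 57.8 CPM at 24 h. The 3 h libraries were at the level of the low library of each other group. Over all libraries the median 3 h difference of the 14 was -1.0 in L, and against Serum/LIF replicate 2, the one low control library, it was 0.05 (range -0.91 to 0.67). Only Mymx (-0.91) and Cdc42ep5 (-0.81) were still past the threshold there. For the 12 others, the 3 h fall and the kind of library cannot be told apart. The 14 hold 4 nuclear genes of the respiratory chain and its assembly (Ndufaf8, Ndufb6, Uqcr11 and Coa6). In the whole family of 91 tested genes, drawn up after the values were seen, the median at 3 h was 0.02 (log2), with 8 genes higher and 3 lower.

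Of the other 106 falls, the median 3 h difference was -0.89 over all libraries and -0.91 against Serum/LIF replicate 2, where 84 were past the threshold and the weakest was at -0.51. For the rises these were 0.94 and 0.95, with 24 of 28 past the threshold. Every 3 h library was above every Serum/LIF library in all 28 rises (22.0% of the 13623 genes over the floor were so), and below in 110 of the 120 falls (39.9% of genes), the 10 exceptions all being among the 14. By edgeR all 28 rises were higher at 3 h (16.3% of 16049 genes tested) and 108 of 120 falls lower (18.2%). At 24 h against Serum/LIF, 12 rises were called higher (21.8% of genes), 29 falls lower (22.2%) and 2 falls higher. The rule had used both contrasts, and nothing is read from any of these counts.

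The threshold fell in a dense region. Among genes with a symbol whose largest group mean was at least 5 CPM, the rises just inside it at 3 h were Mettl25 (0.84), Prpf39 (0.85) and Adap1 (0.85), and Lif (0.78) and Cacna1b (0.77) lay just outside. At 24 h Mettl25 (0.39), Id2 (0.39) and Adap1 (0.38) were inside, and Wsb2 (0.41), Hrk (0.42) and Tmem251 (0.42) outside. Among the falls Platr22 (-0.801) and Abca7 (-0.802) were inside at 3 h and Dcaf5 (-0.799), Foxo1 (-0.798) and Bag3 (-0.798) outside, while at 24 h Klhl5 (-0.397) and Sox15 (-0.394) were inside and Vmac (-0.404), Acbd4 (-0.406) and Ndufa4l2 (-0.408) outside. The balance of rises and falls depends on scaling, since the median 3 h difference over all genes was -0.08 in L by library total and -0.01 with TMM scaling. With TMM the rule gave 125 genes, 44 rises and 81 falls (64.8% falls against 81.1%), and kept 26 of the rises and 78 of the falls.

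To ask how fast the genes came back, 9 h was compared with Serum/LIF and with 3 h. The rule used the 9 h libraries only in its minimum on the largest group mean, but each comparison shares with it a group whose level chose the genes. A gene chosen for a high or low 3 h level and for its return by 24 h would be expected to lie nearer its Serum/LIF level at 9 h, so the 9 h against 3 h values are a description with no test. A gene chosen against its Serum/LIF level can also seem still changed at 9 h for that reason. The 9 h against Serum/LIF values are therefore a description as well. The median difference in L from 0 h was 0.94, 0.30 and 0.18 at 3, 9 and 24 h for the rises and -0.90, -0.36 and -0.16 for the falls. The share of the 3 h difference in L left at 9 h had a median of 24.7% in rises (from -49.8% to 73.0%, under 50% in 23 of 28) and of 37.1% in falls (from -30.8% to 94.7%, under 50% in 83 of 120), and of 37.3% in the 106 falls without the split. This difference between rises and falls was not tested. In addition, 7 rises and 6 falls had crossed to the other side of their Serum/LIF mean.

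**Figure D3:**
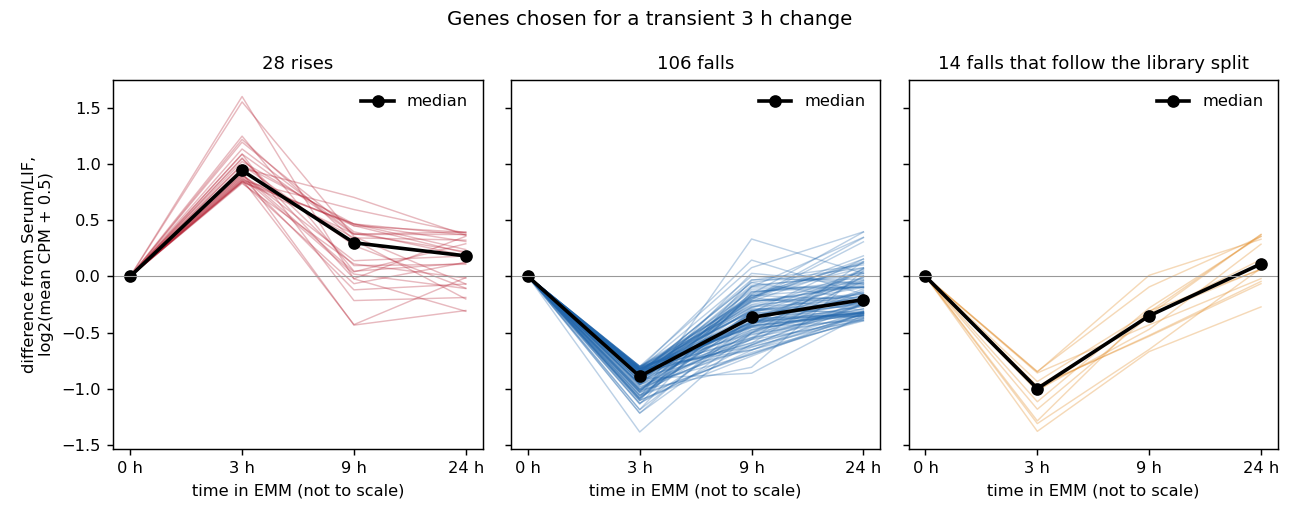
Difference in L from 0 h (y axis) at 0, 3, 9 and 24 h in EMM (x axis, not to scale) for each of the 28 rises, the 106 falls without the library split and the 14 falls with it (thin lines), with the median of each set (black). The median of the rises goes from 0.94 at 3 h to 0.30 at 9 h and 0.18 at 24 h, and the 2 sets of falls start from -0.89 and -1.0 at 3 h.

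At 9 h against Serum/LIF, 13 of 28 rises were still higher (18.5% of all genes tested were higher) and 2, Srf and Zfp423, lower. None of the falls was higher and 59 of 120 were lower (19.7% of all genes), all 59 outside the library split. The rule had used the Serum/LIF libraries, so nothing is read from these counts. The rises with the largest share left at 9 h were Cnn1 (log2 fold change 0.82 ± 0.11 SE) and Adap1, an Arf GTPase activator (0.63 ± 0.06 SE). Both were picked by their 9 h values, so no test of them is given. Among the falls over 5 CPM, Azin2, an antizyme inhibitor of polyamine metabolism, had the largest share left at 9 h. It was at 14.3, 14.3 and 13.9 CPM in Serum/LIF, 7.55, 6.68 and 7.70 CPM at 3 h and 8.0, 7.31 and 7.42 CPM at 9 h, with 94.7% of its difference left, and at 12.3, 9.84 and 11.1 CPM at 24 h. Robo4 (80% left) and Klhl5 (80% left) were next. The smallest shares left at 9 h among falls over 5 CPM were those of P4ha1, Abca7, a lipid transporter, and Zfp395. These were likewise picked by their 9 h values, with no test.

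Between 3 h and 9 h, 26 of 28 rises were called lower (12.9% of all genes were) and 81 of 120 falls higher (13.7% of all genes were), all 81 outside the library split. The rule had used the 3 h libraries, and nothing is read from these counts. The exceptions among the rises were Cnn1 and the unnamed transcript 6330410L21Rik. Srf and Zfp423 moved most among rises over 5 CPM, by -1.40 ± 0.09 SE and -1.34 ± 0.04 SE (log2). With a term for the kind of library, chosen after seeing the data, 117 of the 148 were called between 3 h and 9 h instead of 107, and 77 instead of 74 at 9 h against Serum/LIF. With the 7 low libraries alone the counts were 108 and 51, the latter with 2 libraries at 9 h against 1 of Serum/LIF, which was assumed to vary like the other groups.

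Of the transient genes, 15 (5 rises and 10 falls) are on at least 1 of 21 pathway lists, which hold 451 genes. Of 23 tested genes of the serum-response cytoskeleton and YAP targets, which hold Vcl and Cnn1, 18 were higher at 3 h and 0 lower with a median of 0.74 (log2), and 12 were higher and 1 lower at 9 h with a median of 0.34. The median over all genes was -0.01 at 3 h. The background shares were 16.3% of genes called higher and 18.2% lower at 3 h, with 18.5% and 19.7% at 9 h, and the count of each list is to be read against them. Of 30 immediate early genes, which hold Srf and Jund, 12 were higher and 3 lower at 3 h, and of 19 ERK feedback genes, which hold Dusp5, 8 were higher and 6 lower. The TGF-beta, Nodal and BMP list (Id2 and Id3) had 3 of 16 higher and 8 lower, and the Wnt and Notch list (Axin2) 3 of 21 higher, near the share of all genes, and 6 lower. Of the clock genes, 11 of 19 were higher and 2 lower, Per3 being one of the latter. The pluripotency list (Prdm14 and Sox15) had 6 of 23 higher and 12 lower. The hypoxia list (P4ha1) had 2 of 18 higher and 8 lower at 3 h, and 6 higher and 3 lower at 9 h. The MondoA and glucose list (Pdk4) had 3 of 20 higher, again near that share, and 8 lower, the p53 list (Pmaip1) 5 of 18 higher and 5 lower, and the sterol list (Mylip) 9 of 31 higher and 5 lower.

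No transient gene was on the other 10 lists. Of these, the integrated stress and amino acid list had 19 of 29 lower at 3 h and 22 lower at 9 h, the ER stress list 12 of 19 higher at both times, and the G2 to M list 21 of 30 lower at 3 h and 20 lower at 9 h. The others at 3 h were LIF and STAT3 (6 of 14 higher and 3 lower), heat shock (5 of 16 and 4), FoxO and insulin (2 of 19 and 8), Nrf2 (7 of 13 and 1), snoRNA hosts (5 of 15 and 0), ribosome biogenesis (10 of 22 and 0) and G1 to S (0 of 24 and 7). The summed levels of 8 markers each of other cell types were also compared. Those of primitive endoderm were at 76.3 to 89.6 CPM in Serum/LIF and 135 to 145 CPM at 3 h, most of it from the 1 gene Lama1 (61.0 to 129 CPM over the 12 libraries), while none of the others passed 10.9 CPM and 3 of the 8 were under 1 CPM in every library of both groups. Markers of mesoderm and neural cells went from 153 to 183 CPM to 223 to 232 CPM, those of trophectoderm from 197 to 210 CPM to 246 to 290 CPM, and those of fibroblasts from 66.5 to 69.4 CPM to 59.8 to 69.8 CPM. Most of the mesoderm and neural sum came from Nes (41.2 to 87.9 CPM) and Tubb3 (69.9 to 109 CPM). Most of the trophectoderm sum came from Krt8 (72.3 to 134 CPM) and Krt18 (63.7 to 134 CPM), while Cdx2, Gata3 and Elf5 never passed 4.19 CPM. In bulk RNA a change in the number of cells of a type and a change in RNA per cell cannot be told apart, and the part of such cells in the transient genes was not tested.

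The transient genes were mostly protein coding, 26 of 28 rises and 116 of 120 falls, against 86.6% of all tested genes. The median transcript had 2814 bases in rises and 3396 in falls, against 3134 in all, and 3678 in the 106 falls without the split. Median GC content was 56.4% in rises and 54.1% in falls, and 49.9% in all. Transcripts under 1000 bases held 14 falls of 517 protein-coding genes (2.71%), and each longer class held between 0.713% and 0.834%. The exons of 24 transient genes, 7 rises and 17 falls, overlap those of another tested gene, in every case on the other strand.

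The passage experiment was not used by the rule and shows how the same genes stood after long culture. Of the 148, 146 could be tested, Egr4 and Gsx1 being too low. In EMM at P10 against Serum/LIF at P10, 51 of 146 (34.9%) were called, where 37.4% of all genes were. Of the rises, 9 were higher (18.7% of genes) and 7 lower (18.7% of genes), and 9 falls were higher and 26 lower. At P20, 32 of 146 (21.9%) were called, where 26.0% of all genes were, with 5 rises higher (13.6% of genes) and 1 lower (12.5% of genes), and 10 falls higher and 16 lower. Of the 51, 35 were in the direction of the 3 h change, and of the 32, 21 were. The other 16 and 11 were opposite. Neither share of genes called, 34.9% or 21.9%, was above that of all genes. Markers of other cell types differed between the passage groups, in both directions. Fibroblast markers, of which Pdgfrb is itself a fall, summed to 149 to 179 CPM at P10 and 248 to 498 CPM at P20 in Serum/LIF, 12.4 to 23.9 CPM in EMM and 5.52 to 7.97 CPM in 2i/LIF. Trophectoderm markers summed to 599 to 680 CPM and 348 to 477 CPM in Serum/LIF, 57.9 to 113 CPM in EMM and 85.8 to 162 CPM in 2i/LIF. Primitive endoderm markers went the other way, at 68.6 to 75.3 CPM in P10 Serum/LIF, 109 to 138 CPM in P10 EMM and 195 to 258 CPM in P10 2i/LIF, and at 77.1 to 95.4 CPM, 90.5 to 108 CPM and 127 to 151 CPM at P20, where Serum/LIF and EMM overlapped. Mesoderm and neural markers were at 203 to 260 CPM in P10 Serum/LIF, 95.1 to 103 CPM in P10 EMM and 82.9 to 119 CPM in P10 2i/LIF, and at 157 to 170 CPM, 134 to 142 CPM and 164 to 189 CPM at P20. Few genes made up much of the fibroblast, trophectoderm and primitive endoderm sums. Over the 18 libraries the highest values were 373 CPM for Col1a1, 393 CPM for Krt8, 214 CPM for Krt18 and 252 CPM for Lama1. Of the 8 fibroblast markers, 5 were under 1 CPM in every library of each EMM and 2i/LIF group, against 2 and 1 in P10 and P20 Serum/LIF. Their part in the results was not tested.

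Dusp5 was lower in EMM at both passages, against its rise at 3 h. It was at 24.4, 26.5 and 27.4 CPM (TMM-scaled) in P10 Serum/LIF and 11.1, 10.4 and 11 CPM in P10 EMM, and at 20.7, 19.4 and 23.2 CPM and 12.3, 13.2 and 12.9 CPM at P20. By edgeR its log2 fold change was -1.26 ± 0.14 SE at P10 (adjusted p = 6.2e-07) and -0.72 ± 0.13 SE at P20 (adjusted p = 0.00034). Srf was lower at P10 (-0.84 ± 0.09 SE, adjusted p = 6.2e-07) with 55.3, 49.7 and 53 CPM in Serum/LIF and 31.3, 26.9 and 29.9 CPM in EMM, and was not called at P20 (adjusted p = 0.18 by edgeR). Cnn1 was at 11.8, 11.6 and 11.5 CPM in P10 Serum/LIF and 0.206, 0.499 and 0.440 CPM in P10 EMM, but at 4.98, 4.17 and 6.34 CPM and 4.65, 6.13 and 5.11 CPM at P20. Zfp423 kept the direction of its rise, at 23.5, 23.1 and 21.3 CPM in P10 Serum/LIF and 67.9, 54.9 and 50.8 CPM in P10 EMM (1.36 ± 0.12 SE, adjusted p = 5.6e-08), and was higher at P20 too (0.52 ± 0.12 SE, adjusted p = 0.0019, both by edgeR). Slc20a1 was likewise higher at P10 (0.91 ± 0.07 SE, adjusted p = 1.2e-08) and P20 (0.57 ± 0.07 SE, adjusted p = 8.6e-06, both by edgeR). Trp73 and Id2 were called higher at P20 and not at P10, with P20 differences of 1.65 ± 0.16 SE and 1.15 ± 0.18 SE (adjusted p = 4.4e-07 and 6.3e-05 by edgeR), and in both the EMM difference itself changed between passages (interaction adjusted p = 6.7e-05 and 0.00066 by edgeR).

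The signalling falls Axin2 and Id3 were lower at both passages. Axin2 was at 29.6, 27.1 and 15.6 CPM in P10 Serum/LIF and 13.8, 13.5 and 9.98 CPM in P10 EMM, and at 26.3, 26.9 and 33.4 CPM and 12.6, 14.1 and 11.3 CPM at P20, with no overlap of groups (-0.94 ± 0.20 SE and -1.18 ± 0.19 SE, adjusted p = 0.00071 and 7.3e-05 by edgeR). Id3 was at 48.4, 40.2 and 36.9 CPM and 24.0, 22.9 and 22.8 CPM at P10, and 33.3, 29.4 and 38.3 CPM and 16.8, 19 and 15.9 CPM at P20 (-0.85 ± 0.12 SE and -0.96 ± 0.12 SE, adjusted p = 1.7e-05 and 7.5e-06 by edgeR). Snx33, a sorting nexin, was lower at both as well, by 1.72 ± 0.32 SE and 1.18 ± 0.29 SE on the log2 scale. Falls called higher in EMM numbered 9 at P10 and 10 at P20, against 26 and 16 lower. Over 5 CPM in the time course, the largest increases were those of Robo4 (2.07 ± 0.33 SE) and Mymx (1.40 ± 0.14 SE) at P10. At P20 it was that of Ltbp3 (1.04 ± 0.16 SE). Prdm14 was called lower at P20 (-1.04 ± 0.13 SE, adjusted p = 6.8e-06 by edgeR), P4ha1 was called higher at P20 (0.68 ± 0.11 SE, adjusted p = 0.00015 by edgeR), neither was called at P10 (interaction adjusted p = 0.0051 and 0.044 by edgeR), and Pmaip1 was called at neither passage. Whether the EMM difference itself changed between P10 and P20 was tested as an interaction, and 25 of 146 (17.1%) passed, where 14.7% of all genes did.

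**Figure D4:**
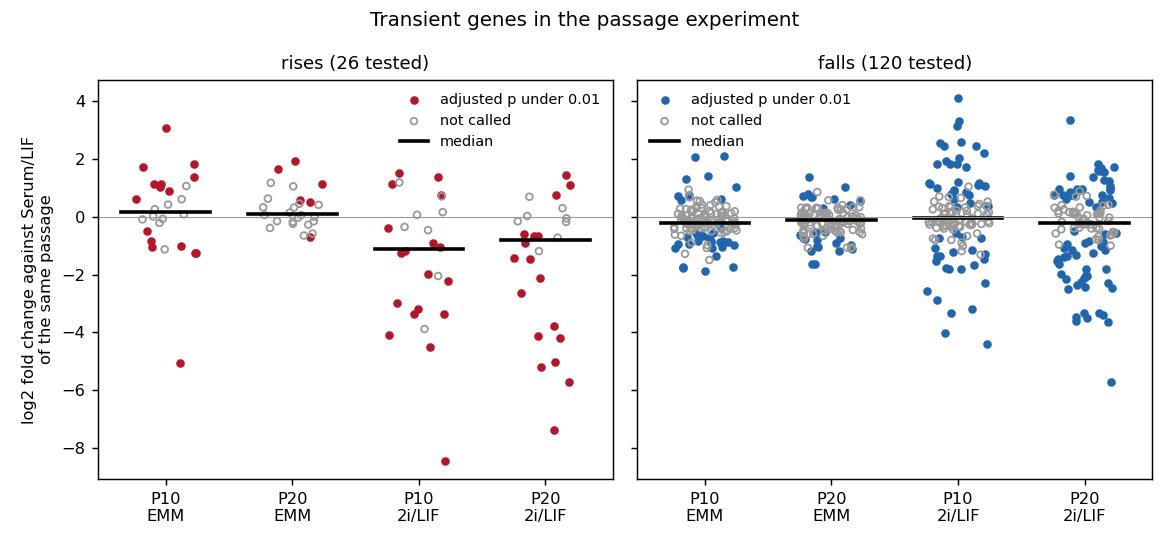
Log2 fold change against Serum/LIF of the same passage (y axis) of the 26 tested rises and 120 falls in P10 EMM, P20 EMM, P10 2i/LIF and P20 2i/LIF (x axis), 1 point per gene, filled where called and open where not, with the bar at the median. The median of the rises is at -1.12 and -0.81 in 2i/LIF and that of the falls between -0.22 and -0.05 in all 4 comparisons. Fitted values of genes near 0 CPM in 1 group, such as Cnn1, depend on the prior count.

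In 2i/LIF, which inhibits both MEK and GSK3, more rises were lower than higher. The paper describes Serum/LIF as serum-containing and 2i/LIF as a defined condition, so the media differ beyond the inhibitors. Which of these differences the rises follow was not tested. At P10, 14 of 26 rises were lower (25.6% of all genes were) and 4 higher (26.4% of genes), with a median of -1.12 (log2) against 0.02 over all genes, and at P20 15 were lower (23.2% of genes) and 3 higher (21.0% of genes), with a median of -0.81. Falls were called in both directions. At P10 31 of them were higher and 23 lower, while P20 had 29 higher and 40 lower. Together 72 of 146 (49.3%) were called at P10, where 52.0% of all genes were, and 87 (59.6%) at P20, where 44.2% were. Dusp5 was at 3.52, 4.28 and 2.35 CPM in P10 2i/LIF and 1.20, 1.04 and 1.23 CPM in P20 2i/LIF, against at least 19.4 CPM in every Serum/LIF library. Its log2 fold changes were -2.99 ± 0.16 SE and -4.20 ± 0.18 SE (adjusted p = 2.0e-11 and 2.4e-12 by edgeR). Id2 was between 1.09 and 2.82 CPM in all 6 2i/LIF libraries (-4.10 ± 0.24 SE at P10, adjusted p = 7.9e-11 by edgeR). Zfp423 was at 0.704, 1.49 and 0.835 CPM in P10 2i/LIF (-4.51 ± 0.19 SE, adjusted p = 1.1e-12 by edgeR). Cnn1 was at 0 CPM in 4 of the 6 libraries and at 0.0522 and 0.0614 CPM in the others, so no fold is given. Srf was lower at both passages, by 1.25 ± 0.09 SE and 0.61 ± 0.09 SE on the log2 scale.

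The rises Efna3, Trh and Trp73 went the other way in 2i/LIF. Efna3 was at 15.4, 18.6 and 21.9 CPM in P10 2i/LIF against 5.93, 6.99 and 6.67 CPM in Serum/LIF (1.52 ± 0.17 SE, adjusted p = 4.7e-07 by edgeR). Trh was at 533, 510 and 385 CPM against 231, 220 and 197 CPM (1.14 ± 0.13 SE, adjusted p = 6.7e-07 by edgeR). Trp73 was higher by 0.76 ± 0.17 SE at P10 and 1.10 ± 0.17 SE at P20 (adjusted p = 0.00073 and 1.9e-05 by edgeR).
GSK3 inhibition activates the Wnt pathway, and its part in these values was not tested. Of the falls over 5 CPM in the time course, Axin2 had the largest increase at P10. The weaker Prickle2 increased more (4.12 ± 0.19 SE). Axin2 was at 209, 266 and 242 CPM in P10 2i/LIF and 79.4, 101 and 101 CPM in P20 2i/LIF (3.30 ± 0.18 SE and 1.71 ± 0.18 SE, adjusted p = 4.6e-11 and 2.0e-07 by edgeR). Prdm14 was also higher (1.82 ± 0.13 SE and 0.97 ± 0.13 SE, adjusted p = 1.3e-09 and 3.0e-06 by edgeR), as were Sirpa and Creb3l2, an ER-bound transcription factor (3.16 ± 0.17 SE and 1.69 ± 0.17 SE). Pmaip1 was at 5.53, 4.37 and 3.55 CPM in P10 2i/LIF against 33.7, 34.3 and 28.6 CPM in Serum/LIF (-2.88 ± 0.17 SE, adjusted p = 6.4e-11 by edgeR). Pdk4 turned between passages, higher at P10 (1.18 ± 0.20 SE) and lower at P20 (-2.51 ± 0.24 SE). At P20 the genes of chromosomes 6 and 8 had medians of 0.33 and 0.45 (log2) in 2i/LIF against Serum/LIF. Trh and Creb3l2 lie on chromosome 6, and without both chromosomes 75 of 131 tested genes were called. The share of all genes called without these chromosomes is not given here, so nothing is read from this count.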

How the data were processed

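RNA-seq of 12 time course libraries and 18 passage libraries was analysed, 3 per group, each taken as 1 independent sample as the study's methods state. The time course table was deposited by the authors as counts, whole numbers per gene with no normalization. The passage table was deposited by the authors as estimated counts per gene, also with no normalization. Of all its values, zeros included, 9.98% were not whole (27.15% of nonzero values), and these were rounded before testing. The submitters' processing notes name mm10, STAR and DESeq2 for both, featureCounts for the time course and Salmon for the passage experiment, whereas the methods name HTSeq. Versions, annotation and the strand setting are not given in the sources used here. The methods state rRNA depletion. The kits differ between the experiments, so no value was compared across them.

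Genes were filtered with filterByExpr (16049 and 16054 kept), scaled by TMM and fitted with the quasi-likelihood test of edgeR 4.0.16 (R 4.3.3), all groups of an experiment in 1 model. P-values were adjusted by Benjamini-Hochberg over all genes tested, and a gene was called at an adjusted p under 0.01, with no fold threshold. A standard error (SE) belongs to the log2 fold change of this fit. Time course CPM in the text are unscaled and passage CPM are TMM-scaled. Values of 3 libraries are in the order of replicates 1 to 3. CPM is not divided by transcript length, so levels are not compared between genes. With 3 against 3 libraries a two-sided exact permutation test cannot go below p = 0.1. On simulated counts with 200 genes changed 2-fold, the test found 200 of them with 4 false calls over 16049 genes (9 h against Serum/LIF) and 195 with 4 false calls over 16054 genes (P10 EMM against P10 Serum/LIF). The changed genes were drawn from those with a mean over 5 CPM, and every gene had the same spread, with no library split. The result does not carry over to weaker genes or to the falls of the library split.

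The members and all lists were chosen with earlier results of these data known. Named genes were those with the largest 3 h difference over 5 CPM, those on a list, those nearest the thresholds, those called with the largest changes in each passage comparison, and those with the largest and smallest share left at 9 h. Other names are said to have been chosen after their values were seen, as were the 2 kinds of library, defined by the largest gap in Rpl36. Alternatives were other normalizations, filters, thresholds and pseudocounts, DESeq2 1.42.0, each library left out, a replicate block, and, added after seeing the data, the 2 kinds of library. Promoters were from RefSeq, found for 25 of 28 rises and 86 of 120 falls. Counts and CPM cover sampling of reads only.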

Additional observations from a re-analysis of the deposited data

Results flagged for a closer look

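The difference between EMM and Serum/LIF changed between P10 and P20 in 25 of the 146 transient genes tested (edgeR interaction, adjusted p under 0.01), a share of 17.1% where 14.7% of all genes passed. Of these, 3 were called in opposite directions at the 2 passages. The share of all genes called so is not given here, so nothing is read from this count. B3galnt1, a glycosyltransferase gene and a fall, was higher in EMM at P10 (0.57 ± 0.17 SE) and lower at P20 (-1.02 ± 0.17 SE), a change of -1.59 (log2), with 4.51, 4.90 and 5.04 CPM in P10 Serum/LIF, 7.47, 6.79 and 7.19 CPM in P10 EMM, 7.34, 8.56 and 6.90 CPM in P20 Serum/LIF and 3.10, 4.16 and 3.95 CPM in P20 EMM. Per3 was lower at P10 (-0.87 ± 0.18 SE) and higher at P20 (0.77 ± 0.17 SE), a change of 1.65, with 9.21, 13.2 and 10.4 CPM against 6.70, 5.99 and 4.84 CPM at P10 and 10.2, 9.29 and 8.66 CPM against 15.6, 15.5 and 16.9 CPM at P20. Sash1, a signalling scaffold gene, was lower at P10 (-0.66 ± 0.08 SE) and higher at P20 (0.31 ± 0.08 SE), a change of 0.97. In none of the 3 did the EMM and Serum/LIF libraries overlap at either passage. The passages differ in culture age and in the levels of other cell types' markers in Serum/LIF, and the part of either was not tested.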

How the results depend on the processing

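Which genes are transient depends on the rule. The rule gave 148 genes, 235 with a pseudocount of 0.1 CPM, 48 with a 3 h difference of at least 1, 66 with a 24 h difference under 0.2, 169 with the 7 libraries low in Rpl36 (98 shared), and 139 to 182 when 1 library was left out, with 105 to 148 shared. Requiring a log2 fold change over 1 as well, as the study did, left 1 gene called at 9 h against Serum/LIF, 27 at 9 h against 3 h, 25 in P10 EMM and 12 in P20 EMM, and at an adjusted p under 0.05, 56 were called in P20 EMM instead of 32. The numbers of genes called stayed within 1.5 times under the other alternatives run (DESeq2, other filters and scaling, each library left out, and the 2 kinds of library), with 56 to 63 at 9 h against Serum/LIF when 1 library was left out. Of the 3 same-numbered pairs at 9 h against Serum/LIF, 2 deviated together (correlations of 0.164 and 0.207, the highest of each 9 h library with any Serum/LIF library) and 1 did not (-0.004). The libraries of those 2 pairs are also of the same kind, low for replicate 2 and high for replicate 3. Replicate 1 at 9 h, a low library, correlated best with Serum/LIF replicate 2, also low (0.116). At 9 h, replicate number and kind of library were not separated. In the passage experiment the correlations of same-numbered pairs ran from -0.096 to 0.074. Since not every same-numbered pair deviated together, the numbers were not taken as pairs. In P10 and P20 2i/LIF each library correlated best with its own number, at most at 0.074, and in both EMM passage comparisons this was not so. With a replicate block, 71 genes were called at 9 h against Serum/LIF by the numbers in the titles and 65 by those in the descriptions, which differ, and 108 at 9 h against 3 h, 49 in P10 EMM, 33 in P20 EMM, 72 in P10 2i/LIF and 87 in P20 2i/LIF. Depth limits the weakly expressed genes most, and 107 of the 148 reach a group mean of 5 CPM.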
